A study of Mus musculus with 9 samples.

Results

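Amacrine cells are the interneurons of the inner retina, and they are told apart largely by the transmitter they make. The genes described here are 9 enzymes and transporters that make, load or take up those transmitters: Gad1, Gad2, Slc32a1, Slc6a9, Chat, Slc18a3, Slc5a7, Th and Slc17a8. They were taken as every non-control probe whose RefSeq accession maps to one of these symbols, which gave 13 probes for 9 of the 19751 gene symbols on the array. All 13 probes were well above background on all 9 arrays, so all 9 genes passed the filter on dim probes and none was left out.

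The samples were retinas of adult male C57BL/6 mice, each of which had received AAP, HAN or PBS into the vitreous of the right eye and was killed 7 days later. AAP and HAN are peptides that bind vascular endothelial growth factor with high affinity, per the series title, and PBS, the saline buffer, was the negative control. The labels give 1 µM for all 3 injections, PBS included. Each group had 12 mice and 3 arrays, and each array measured RNA pooled from 4 retinas, so the spread and the p-values below are those between 3 pools. No uninjected eye was among the groups, so every value includes whatever an intravitreal injection does by itself.

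Most amacrine cells release GABA or glycine. GABA is made from glutamate by the glutamate decarboxylases, glycine is gathered by an uptake transporter of the plasma membrane, and both are loaded into vesicles by one shared transporter. Starburst amacrine cells release acetylcholine as well as GABA and serve the detection of motion direction. A sparse class releases dopamine, which adjusts the retina to light, and another carries a vesicular transporter for glutamate. Whole retina was measured, so fewer cells of a type and less RNA per cell cannot be told apart.

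Sequence just before the transcription start of these genes was read from RefSeq (GRCm38.p6), where all 9 symbols had at least 1 window and there were 12 windows in all. The 250 bases before the start are shown for 5 genes, written 5′ to 3′ on the strand of the gene. They are Th, whose HAN and PBS arrays did not overlap, both GABA enzymes, whose levels were most alike over the arrays, and the acetylcholine pair Chat and Slc18a3, which share a locus. Capitals mark every match, on either strand, to TGACGTCA (the cAMP response element) or its end part CGTCA. They mark in the same way GCCNNNGGC (AP-2), AAAGGTCA (NBRE, the site of Nr4a receptors) and TATAAA.

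Th (chr7:142899996-142900245, minus strand): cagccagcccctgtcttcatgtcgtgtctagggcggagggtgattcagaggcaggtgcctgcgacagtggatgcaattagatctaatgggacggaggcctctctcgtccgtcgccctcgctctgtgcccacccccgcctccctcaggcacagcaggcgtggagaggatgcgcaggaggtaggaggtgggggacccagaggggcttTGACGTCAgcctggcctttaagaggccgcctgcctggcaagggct
Gad1 (chr2:70561879-70562128, plus strand): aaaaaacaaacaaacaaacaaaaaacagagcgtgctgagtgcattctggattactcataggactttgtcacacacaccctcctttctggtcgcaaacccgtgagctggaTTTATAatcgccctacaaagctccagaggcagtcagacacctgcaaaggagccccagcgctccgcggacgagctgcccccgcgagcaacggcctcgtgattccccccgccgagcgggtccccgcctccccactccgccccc
Gad2 (chr2:22622077-22622326, plus strand): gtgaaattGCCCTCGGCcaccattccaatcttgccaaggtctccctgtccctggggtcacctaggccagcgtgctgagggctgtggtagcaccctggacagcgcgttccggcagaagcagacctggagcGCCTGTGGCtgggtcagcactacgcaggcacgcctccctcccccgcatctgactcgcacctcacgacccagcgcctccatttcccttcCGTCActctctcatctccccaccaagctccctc
Chat (chr14:32465910-32466159, minus strand): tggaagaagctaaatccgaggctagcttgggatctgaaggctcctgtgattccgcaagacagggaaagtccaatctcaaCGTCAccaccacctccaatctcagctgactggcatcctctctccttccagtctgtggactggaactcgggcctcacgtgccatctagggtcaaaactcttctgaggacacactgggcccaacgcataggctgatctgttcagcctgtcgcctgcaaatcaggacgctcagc
Slc18a3 (chr14:32464851-32465100, minus strand): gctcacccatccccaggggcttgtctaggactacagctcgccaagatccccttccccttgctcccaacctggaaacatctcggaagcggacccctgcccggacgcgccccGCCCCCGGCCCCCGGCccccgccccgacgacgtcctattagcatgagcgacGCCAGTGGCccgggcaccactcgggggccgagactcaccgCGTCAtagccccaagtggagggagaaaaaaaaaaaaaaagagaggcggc

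Th held the whole cAMP response element, 45 to 38 bases before its start, and was the 1 window of the 12 that did; 1.55% of all 32851 promoter windows of the same length hold it. The end part CGTCA overlaps that element in Th and stood alone in Gad2, Chat, Slc18a3 and 1 window of Slc6a9. That made 5 of the 12 windows, against 17.8% of all windows. AP-2 letters were found in Gad2 and Slc18a3 (2 of 12 windows, against 13.7%) and TATA letters in Gad1, on the opposite strand, and Slc5a7 (2 of 12, against 12.4%). NBRE letters were in 0 of the 12 windows and in 1.34% of all windows. These are matches of letters and were not tested as sites.

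None of the 9 transmitter genes passed the test in any comparison. A single limma model with a mean per group was fitted to all 23889 measured genes and transcripts on the 9 arrays, two-sided, with Benjamini-Hochberg adjustment over all of them, and calls were made at an adjusted p under 0.05. The members called were 0 of 9 in AAP against PBS, where 0.00419% of all genes were called, 0 of 9 in HAN against PBS, where 0.00419% were called, and 0 of 9 in AAP against HAN, where 0% were called. An unadjusted p under 0.05 was found for 1 member, Th, in HAN against PBS, and for 6.79%, 9.65% and 8.54% of all genes in the 3 comparisons. Member changes in AAP against PBS ran from -0.13 (Gad1) to 0.11 (Slc6a9) on the log2 scale, with a median of -0.02 beside 0.00 over all genes. In HAN against PBS they ran from -0.27 (Th) to 0.15 (Chat), median 0.01 beside 0.01 over all genes, and in AAP against HAN from -0.16 (Chat) to 0.19 (Th), median -0.04 beside 0.00.

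The 95% intervals of the 9 members, unadjusted and from the brightest probe of each gene without a slide term, had half-widths from 0.13 (Slc6a9) to 0.28 (Gad2) on the log2 scale. In AAP against PBS no interval reached past 1.29-fold lower or 1.23-fold higher, and in HAN against PBS none reached past 1.42-fold lower (Th) or 1.30-fold higher (Chat). In AAP against HAN the intervals ended at 1.32-fold lower (Gad2) and 1.35-fold higher (Th). These ends do not hold for every probe or fit: the second probe of Slc5a7 reached 0.45 in HAN against PBS, that of Slc17a8 reached -0.86 in AAP against PBS, and Th itself was at -0.63 in HAN against PBS with slide as a fixed block (all on the log2 scale).

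**Figure D1:**
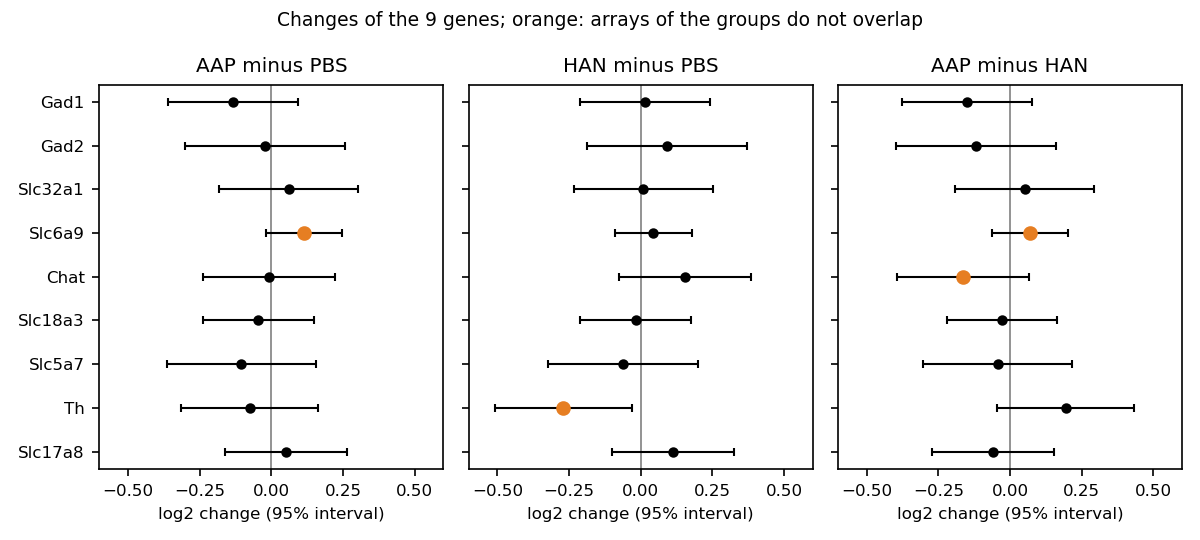
Log2 change of each of the 9 transmitter genes (points) with its 95% interval from the limma fit (bars) for AAP minus PBS, HAN minus PBS and AAP minus HAN. All intervals but that of Th in HAN minus PBS include 0; orange points mark the 4 cases in which the arrays of both groups did not overlap.

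Levels are given as the log2 of the processed signal over the array's 75th percentile, which sets all arrays to one scale. Probes differ in how strongly they bind, so a level is compared here between arrays and never between genes. Arrays of 2 groups that do not overlap are a weak sign with 3 pools in a group: 11.9% of all genes did so in AAP against PBS, 20.9% in HAN against PBS and 14.3% in AAP against HAN. Of the 9 members 1 did in AAP against PBS (Slc6a9, higher), 1 in HAN against PBS (Th, lower) and 2 in AAP against HAN (Slc6a9, higher, and Chat, lower).

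**Figure D2:**
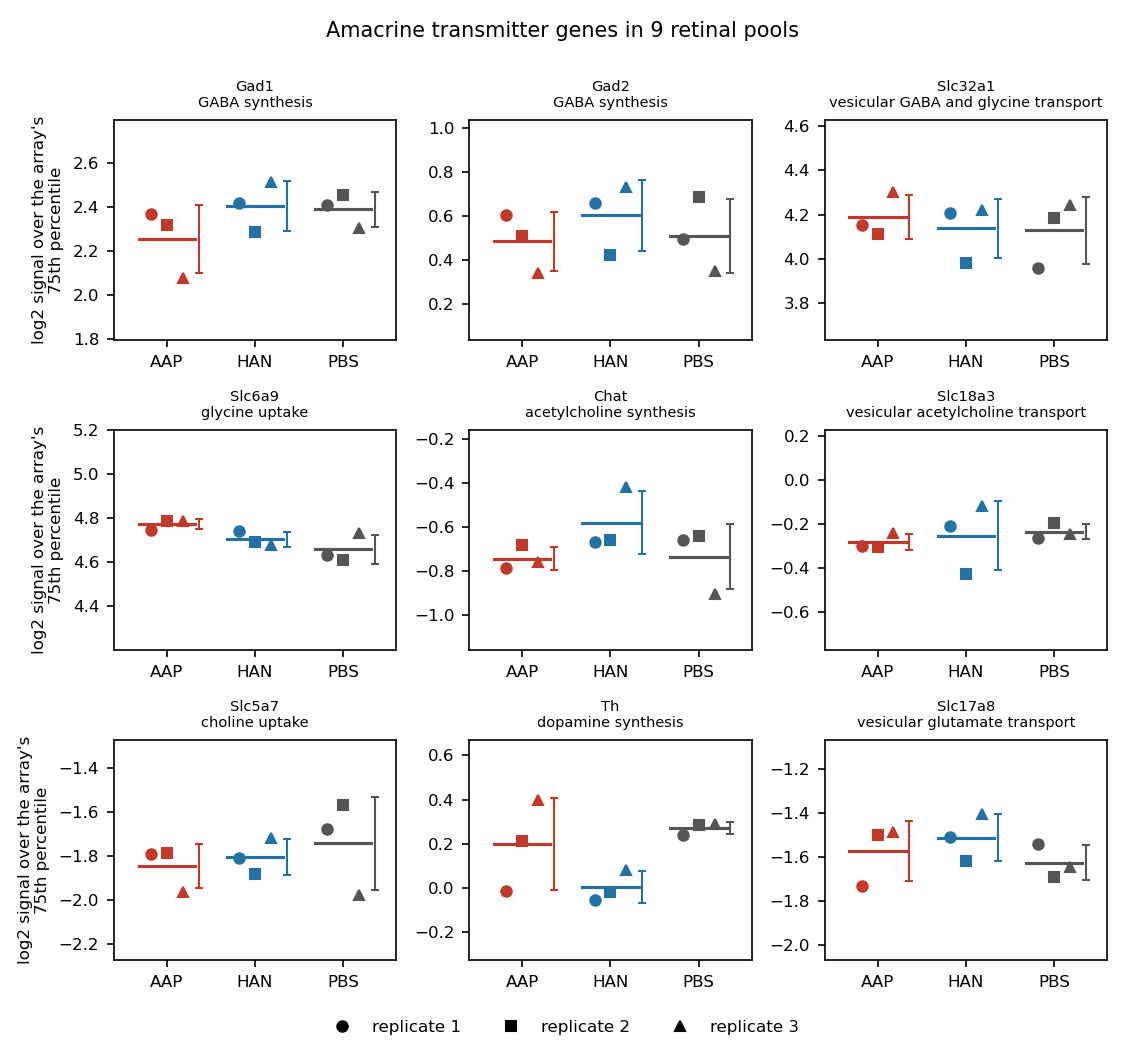
Level of each gene in the 9 pools (points, 1 symbol a replicate number), with the mean of 3 arrays (line) and its SD (bar); the y axis of every panel spans 1 log2 unit. Th is the gene whose HAN pools, at -0.06 to 0.08, all lie under the PBS pools, at 0.24 to 0.29.

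Th encodes tyrosine hydroxylase, the rate-limiting enzyme of dopamine synthesis and the marker of dopaminergic amacrine cells. Its level was -0.02, 0.21 and 0.40 in AAP 1, AAP 2 and AAP 3, -0.06, -0.02 and 0.08 in HAN 1, HAN 2 and HAN 3, and 0.24, 0.29 and 0.29 in PBS 1, PBS 2 and PBS 3. The HAN pools were all lower than the PBS pools, while the AAP pools spread over the whole range, with AAP 1 among the HAN values and AAP 3 the highest of all 9. Th averaged 0.00 ± 0.07 in HAN and 0.27 ± 0.03 in PBS (SD, n = 3 each), a difference of -0.27 (SE 0.10, 95% interval -0.51 to -0.03, limma unadjusted p = 0.0310, adjusted p = 0.483). That is 0.829 times the PBS signal in HAN, and it did not pass. AAP against PBS was at -0.08 (-0.31 to 0.16, adjusted p = 0.899) and AAP against HAN at 0.19 (-0.04 to 0.43, adjusted p = 0.588).

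Before scaling, the processed signal of Th was 2024, 2227 and 1757 in AAP, 1941, 1974 and 2383 in HAN and 2768, 2604 and 2366 in PBS. On that scale HAN 3 lay just above PBS 3, so HAN and PBS are apart after the scaling of arrays and overlap before it. AAP 3, the highest of the 9 after scaling, was the lowest before it. That array had the lowest 75th percentile, at 1334, and it enters the slide 2 values below. The arrays lay on 3 slides: PBS 1 to 3 and AAP 1 on slide 1, AAP 2, AAP 3, HAN 1 and HAN 2 on slide 2, and HAN 3 on slide 3. No slide held both HAN and PBS. On slide 1 Th in AAP 1 was 0.29 under the PBS mean, a change of -0.29, and on slide 2 the AAP mean was 0.34 above the HAN mean. With slide as a fixed block, HAN against PBS in Th was at -0.63 (adjusted p = 0.289), AAP against PBS at -0.29 (adjusted p = 0.608) and AAP against HAN at 0.34 (adjusted p = 0.651). The first of these is the slide 1 value minus the slide 2 value, so it rests on AAP 1 alone for slide 1 and does not use HAN 3.

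The other genes of the dopamine pathway formed a list of 12, all measured. In AAP against PBS 4 were higher and 8 lower, none passed, and the median was -0.06. In HAN against PBS 6 were higher and 6 lower, none passed, and the median was 0.02. Aromatic amino acid decarboxylase (Ddc), which turns the product of Th into dopamine, was at 0.12 in AAP against PBS and -0.20 in HAN against PBS (adjusted p = 0.855). Gch1, which starts the synthesis of the cofactor of Th, was at -0.33 in AAP and -0.12 in HAN, both against PBS. The vesicular monoamine transporter gene Slc18a2 was at 0.02 in AAP and 0.07 in HAN. Spr, which acts in cofactor synthesis, had the smallest p of the list in HAN against PBS, at -0.21 (adjusted p = 0.659). In AAP against PBS the smallest p values belonged to Qdpr (-0.10), which recycles the cofactor, and Maoa (0.09), which breaks dopamine down. In AAP against HAN, where 4 of 12 were higher and 8 lower, the cofactor synthesis gene Pts was at -0.19 (adjusted p = 0.574), with the AAP pools all lower than the HAN pools. The dopamine transporter gene Slc6a3 was at -0.75 there (-1.52 to 0.02, adjusted p = 0.574) and was well above background on 8 of the 9 arrays.

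Dopamine receptors, 5 of 5 measured, had medians of -0.09 in AAP (1 higher, 4 lower) and 0.00 in HAN (3 higher, 2 lower) against PBS, and none passed. Drd4, found in photoreceptors, was at -0.20 in AAP and -0.15 in HAN, and Drd5 at 0.24 and 0.26, with all HAN pools of Drd5 above all PBS pools. In AAP against HAN all 5 had negative values, with a median of -0.06 and Drd2 at -0.11 (adjusted p = 0.833).

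Gad1 and Gad2 encode the GABA-making enzymes GAD67 and GAD65. Gad1 was at 2.37, 2.32 and 2.08 in AAP, 2.42, 2.28 and 2.51 in HAN and 2.41, 2.46 and 2.30 in PBS. AAP 3 stood lowest of the 9 pools, HAN 3 highest, and all 3 groups overlapped. The change of Gad1 was -0.13 in AAP against PBS (-0.36 to 0.09, limma adjusted p = 0.822), 0.01 in HAN against PBS (-0.21 to 0.24) and -0.15 in AAP against HAN (adjusted p = 0.623). Gad2 was at 0.61, 0.51 and 0.34 in AAP, 0.66, 0.42 and 0.73 in HAN and 0.50, 0.69 and 0.35 in PBS. It had its lowest value in AAP 3 and its highest in HAN 3 too, and its changes were -0.02 in AAP (adjusted p = 0.980) and 0.09 in HAN (adjusted p = 0.842) against PBS.

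Slc32a1 encodes the vesicular transporter for GABA and glycine. It ranged from 4.11 to 4.30 in AAP, 3.98 to 4.22 in HAN and 3.96 to 4.25 in PBS, with AAP 3 highest and PBS 1 lowest, so the vesicle gene did not share the low value that the GABA enzymes had in AAP 3. Its changes against PBS were 0.06 in AAP (-0.18 to 0.30) and 0.01 in HAN (-0.23 to 0.25). A second, dimmer probe gave 0.13 in AAP and -0.09 in HAN, with wider intervals (-0.27 to 0.53 and -0.49 to 0.31).

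Slc6a9 encodes GlyT1, the glycine uptake transporter that marks glycinergic amacrine cells. It was the least variable member, with an SD of 0.06 over the 9 arrays. It was at 4.75, 4.79 and 4.79 in AAP, 4.74, 4.69 and 4.68 in HAN and 4.63, 4.61 and 4.73 in PBS. After scaling, the AAP pools thus lay above those of both other groups, by a narrow gap. Before scaling, its processed signal was 55015, 53219 and 36789 in AAP, 54085, 51698 and 57542 in HAN and 58158, 52182 and 51478 in PBS. On that scale all groups overlapped and AAP 3 was the lowest of the 9. The scaled difference was 0.11 in AAP against PBS (SE 0.06, -0.02 to 0.25, unadjusted p = 0.0831, limma adjusted p = 0.740), 0.04 in HAN against PBS (adjusted p = 0.844) and 0.07 in AAP against HAN (adjusted p = 0.674). With quantile normalization AAP against HAN was at -0.01, with its sign turned. The second probe of Slc6a9, of like brightness, was at 0.05 in AAP against PBS (-0.11 to 0.20) and 0.02 in HAN against PBS, and its groups overlapped in all comparisons. Skeletal muscle markers, 11 of 14 measured, deviated from their PBS mean by 5.69 in AAP 1, -0.28 in AAP 2 and 4.41 in AAP 3 on the log2 scale, averaged over the markers. Their summed level was 2.95 to 117.4 in AAP, 2.74 to 3.04 in HAN and 2.44 to 2.78 in PBS, in units of the array's 75th percentile. The part of these markers in the Slc6a9 values was not tested.

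The list of 10 further genes of GABA and glycine handling had 9 on the array, all measured, and none passed. In AAP against PBS 4 were higher and 5 lower (median -0.01), in HAN against PBS 4 higher and 5 lower (median -0.01), and in AAP against HAN 5 higher and 4 lower (median 0.01). Slc6a11, the GABA uptake transporter GAT3, had the smallest p of the list in HAN against PBS. It was at -0.64, -0.86 and -0.50 in AAP, -0.99, -0.84 and -0.77 in HAN and -0.45, -0.49 and -0.53 in PBS. All HAN pools lay under all PBS pools, by -0.38 (-0.62 to -0.14, limma adjusted p = 0.391), and AAP was at -0.18 against PBS (adjusted p = 0.760). The GABA-degrading transaminase Abat was at 0.00 in AAP and -0.01 in HAN, both against PBS. Glutamine synthetase (Glul), a Mueller glia gene, was at 0.18 in AAP against PBS (adjusted p = 0.756). The glycine-cleaving enzyme gene Gldc was at -0.46 in AAP against HAN (adjusted p = 0.580).

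Among GABA receptors, 16 of 17 measured, none passed; 7 were higher and 9 lower in AAP, 9 higher and 7 lower in HAN, both against PBS, with medians of -0.02 and 0.00. In AAP against PBS the smallest p belonged to Gabbr1 (0.10) and Gabra2 (0.09). In HAN against PBS they belonged to Gabbr2 (0.24, its other probes being at or below -0.05) and Gabrg3 (0.34, another probe at 0.00). Gabra3 was at 0.40 and Gabrg3 at -0.42 in AAP against HAN (adjusted p = 0.574 for both), where 8 were higher and 8 lower (median -0.01). Of 6 glycine receptor genes, all measured, 2 were higher and 4 lower in both AAP and HAN against PBS (medians -0.07 and -0.05), and 4 were higher and 2 lower in AAP against HAN (median 0.01). Glra1, the first alpha subunit, was at -3.00, -3.65 and -2.60 in AAP, -3.59, -3.04 and -3.24 in HAN and -2.82, -2.24 and -2.79 in PBS. The HAN pools lay below the PBS pools, by -0.67 (-1.33 to -0.02, limma adjusted p = 0.513), but another Glra1 probe was at 0.13. Glrb, Glra3 and Glra2 differed by -0.14 to 0.24 in the comparisons in which the rule named them.

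Acetylcholine is made by choline acetyltransferase (Chat), loaded by the vesicular transporter VAChT (Slc18a3) and kept up by choline uptake through CHT1 (Slc5a7). Chat was at -0.79, -0.68 and -0.76 in AAP, -0.67, -0.66 and -0.42 in HAN and -0.66, -0.64 and -0.90 in PBS. HAN 3 was highest and PBS 3 lowest of the 9, and the AAP pools lay narrowly under the HAN pools. The change was -0.01 in AAP against PBS (-0.24 to 0.22, limma adjusted p = 0.992), 0.15 in HAN against PBS (-0.08 to 0.38, adjusted p = 0.648) and -0.16 in AAP against HAN (-0.39 to 0.07, adjusted p = 0.609). Slc18a3 was at -0.30, -0.30 and -0.24 in AAP, -0.21, -0.43 and -0.12 in HAN and -0.26, -0.20 and -0.25 in PBS. Its highest and lowest pool were both HAN pools, and its changes were -0.05 in AAP (-0.24 to 0.15) and -0.02 in HAN (-0.21 to 0.18) against PBS. Chat and Slc18a3 had a Pearson's r of 0.41 over the 9 arrays, given as a description.

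Slc5a7 was read by a pair of probes that did not give the same sign. The brighter was at -1.79, -1.79 and -1.96 in AAP, -1.81, -1.88 and -1.72 in HAN and -1.68, -1.57 and -1.98 in PBS, and all groups overlapped. It gave -0.10 in AAP (-0.37 to 0.16) and -0.06 in HAN (-0.32 to 0.20) against PBS. The dimmer probe was at -3.03, -2.88 and -2.89 in AAP, -2.87, -2.99 and -2.64 in HAN and -3.00, -2.99 and -3.15 in PBS. The HAN pools lay above the PBS pools, but the closest of them, HAN 2 and PBS 2, differed by less than the printed digits. With this probe HAN against PBS was at 0.22 (-0.02 to 0.45, unadjusted p = 0.0695, adjusted p = 0.568 in a limma fit of every probe), and AAP against PBS was at 0.11 (-0.12 to 0.35). The intervals of both probes overlapped in each comparison, and the sign of Slc5a7 against PBS is not settled by these arrays.

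**Figure D3:**
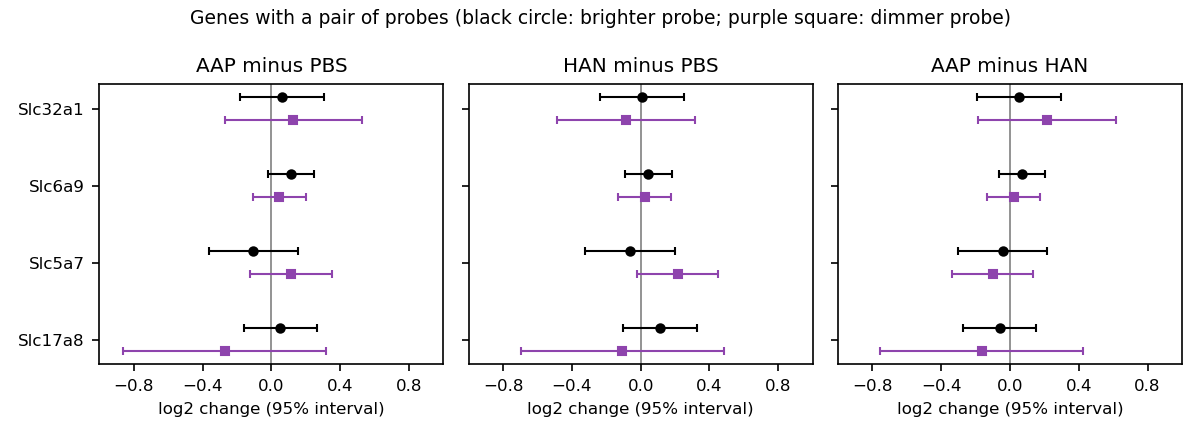
Log2 change with its 95% interval, from a fit of every probe, for the 4 transmitter genes with a pair of probes; the brighter probe is a black circle and the dimmer a purple square. The probes of Slc6a9 lie on the same side of 0 in all 3 comparisons, and those of Slc5a7 and Slc17a8 lie on opposite sides in both comparisons with PBS.

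The 8 further genes of acetylcholine handling were all measured and none passed; 6 were higher and 2 lower in each comparison, with medians of 0.03 in AAP and 0.04 in HAN against PBS and 0.05 in AAP against HAN. Prima1, which anchors acetylcholinesterase in the membrane, was at -3.01, -2.85 and -3.12 in AAP, -2.57, -2.09 and -2.55 in HAN and -2.72, -3.07 and -3.01 in PBS. The HAN pools lay above both other groups, by 0.53 over PBS (0.17 to 0.88, limma adjusted p = 0.420), and AAP against HAN was at -0.59 (-0.94 to -0.23, adjusted p = 0.574). Butyrylcholinesterase (Bche) was at 0.26 in HAN against PBS and -0.33 in AAP against HAN, and acetylcholinesterase itself (Ache) at 0.03 in AAP and -0.02 in HAN against PBS. Pcyt1a, a choline-using enzyme of lipid synthesis, was at 0.13 and Colq, the collagen tail of acetylcholinesterase, at 0.14 in AAP against PBS, with another Colq probe at -0.34. Of 14 acetylcholine receptor genes 12 were measured; 7 were higher and 5 lower in AAP (median 0.02), 5 higher and 7 lower in HAN (median -0.06, but 0.40 with normexp background correction, which put all genes at 0.15), both against PBS, and 7 higher and 5 lower in AAP against HAN (median 0.06). None passed. Chrnb4 was at -0.33 in AAP (-0.66 to -0.00, adjusted p = 0.730) and -0.21 in HAN, Chrna2 at -0.12 in AAP and Chrm1 at 0.21 in HAN, against PBS. In AAP against HAN, Chrm2 was at -0.36 and Chrm1 at -0.25.

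Slc17a8 encodes VGLUT3, the vesicular glutamate transporter of a small class of amacrine cells. It was at -1.73, -1.50 and -1.48 in AAP, -1.51, -1.62 and -1.41 in HAN and -1.54, -1.69 and -1.64 in PBS, with AAP 1 lowest, HAN 3 highest and all groups overlapping. Its changes against PBS were 0.05 in AAP (-0.16 to 0.27, limma adjusted p = 0.924) and 0.11 in HAN (-0.10 to 0.33, adjusted p = 0.732). The second probe was far dimmer, at -5.48 to -4.42 over the 9 arrays, and gave -0.27 in AAP (-0.86 to 0.32) and -0.11 in HAN (-0.70 to 0.48), with groups that overlapped. The other vesicular glutamate transporters were at 0.05 (Slc17a6, of ganglion cells) and 0.13 (Slc17a7, of photoreceptors and bipolar cells) in AAP and at 0.21 (adjusted p = 0.526) and -0.03 in HAN, against PBS, with medians of 0.09 in both. In AAP against HAN they were at -0.17 and 0.16, a median of -0.01, and neither passed.

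With slide as a fixed block, the remaining 8 ran from -0.11 (Slc17a8) to 0.10 (Gad2) in AAP against PBS, from -0.18 (Slc17a8) to 0.21 (Gad2) in HAN against PBS and from -0.15 (Gad1) to 0.11 (Slc32a1) in AAP against HAN. None passed. The sign of Gad2 and of Slc17a8 in AAP against PBS differed from that without the block, as did that of Slc32a1 and of Slc17a8 in HAN against PBS and that of Slc18a3 and of Slc17a8 in AAP against HAN.

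Counted over the 9 genes, and set against each gene's PBS mean, HAN 3 had 8 of the 9 genes higher, with a median of 0.12, and held the highest value of 5 genes; Th was its exception. HAN 1 had 7 of 9 higher, with a median of 0.07, and HAN 2 had 3 of 9 higher, with a median of -0.11. In AAP the counts were 3, 3 and 4 of 9 in AAP 1, AAP 2 and AAP 3, with medians from -0.05 to -0.00, and in PBS they were 4, 7 and 3.

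Likeness of pattern was measured as Pearson's r of the log2 levels over the 9 arrays, which share their scaling and 3 slides, and is a description only. Of the 36 pairs of members 21 had r above 0, with a median of 0.12 and a range from -0.73 (Slc6a9 and Slc5a7) to 0.85 (Gad1 and Gad2). Gad1 and Gad2 were the 1 pair above 0.8; Gad1 ranked 55 among 23857 genes by likeness to Gad2, and Gad2 ranked 231 by likeness to Gad1. Their r was 0.80 to 0.90 with each array left out in turn, 0.91 as deviations from group means and 0.66 with normexp background correction. The nearest member to Slc5a7 was Gad2 (0.77), to Chat also Gad2 (0.68), to Slc18a3 it was Slc32a1 (0.62) and to Slc17a8 it was Chat (0.58, and 0.91 with normexp). Th had no member above 0.30 in the main setting. Its nearest, Slc32a1, was at 0.51 with median scaling, 0.55 without PBS 1 and 0.01 with quantile normalization. The Chat and Gad2 value was 0.28 with normexp.

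Outside the 9 genes, the curated genes most like each member were Wnk1 and Xpo5 for Gad1 (both 0.96), Eml6 and En2 for Gad2 (both 0.94), Car10 (0.97) and Ighmbp2 (0.95) for Slc32a1 and Slco5a1 (0.92) and Itpka (0.91) for Slc6a9. For the acetylcholine genes they were Ptprz1 (0.97) and Abi2 (0.96) for Chat, Nptx2 (0.97) and Mmp17 (0.92) for Slc18a3, and Atm and Parp12 for Slc5a7 (both 0.94). For Th they were Pick1 and Ndufaf3 (both 0.94). For Slc17a8 they were Pnoc (0.93), the precursor of nociceptin, and Cpeb4 (0.89). The Pnoc probe was dim, at -5.82 to -5.57 over the 9 arrays, and 9 of 23857 genes had r above 0.9 with Slc17a8.

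Genes found in amacrine cells that do not make a classical transmitter were counted in the same fit. Not all are particular to amacrine cells: Isl1 is also a bipolar cell marker and Ebf3 a ganglion cell marker. Of 19 amacrine transcription factors 18 were measured and none passed; 11 were higher and 7 lower in AAP against PBS (median 0.03), 15 higher and 3 lower in HAN against PBS (median 0.08, beside 0.01 over all genes) and 4 higher and 14 lower in AAP against HAN (median -0.05). Ebf1 was at -0.87, -0.75 and -0.80 in AAP, -0.78, -0.80 and -0.70 in HAN and -0.93, -0.99 and -0.88 in PBS. Its HAN pools all lay above its PBS pools, by 0.17 (0.03 to 0.32, limma adjusted p = 0.468). So did its AAP pools, by 0.13 (limma adjusted p = 0.733), and both comparisons use the same PBS pools. Barhl2 was at -0.35 in HAN against PBS (adjusted p = 0.584) and 0.43 in AAP against HAN (adjusted p = 0.574). Fezf1, a factor of starburst cells, was at -0.34 in AAP against PBS (-0.64 to -0.04, limma adjusted p = 0.704), with the AAP pools all lower. Pax6 was at -0.19 there (adjusted p = 0.724), with another Pax6 probe at 0.08. The probes of Fezf1 and Barhl2 were dim, at levels of -5.48 to -4.79 and -5.94 to -4.89 over the 9 arrays. Sox2 was at -0.22 in AAP against HAN.

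The 11 amacrine peptide and nitric oxide genes were all measured and none passed; 5 were higher and 6 lower in AAP (median -0.00), 4 higher and 7 lower in HAN (median -0.11), both against PBS, and 7 higher and 4 lower in AAP against HAN (median 0.11). Vip, the vasoactive intestinal peptide of a GABAergic subclass, was at -1.49, -1.28 and -1.21 in AAP, -1.51, -1.57 and -1.40 in HAN and -1.18, -1.09 and -1.07 in PBS. Both the AAP and the HAN pools lay under all PBS pools, by -0.21 (-0.42 to -0.01, limma adjusted p = 0.724) and -0.38 (-0.58 to -0.18, adjusted p = 0.359), and both comparisons use the same PBS pools. Of the 99 measured genes of the 10 related lists, Vip had the smallest adjusted p in HAN against PBS. Of these 99, 6 had groups that did not overlap in AAP against PBS, 13 in HAN against PBS and 5 in AAP against HAN. Over all genes the shares without overlap were 11.9%, 20.9% and 14.3%. Crh had an interval of -1.73 to -0.26 in HAN against PBS (limma adjusted p = 0.437) and was at 0.79 in AAP against HAN. Gal was at -0.47 in AAP against PBS (adjusted p = 0.730), with the AAP pools all below the PBS pools.

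Penk, the enkephalin precursor, was picked out after its values were seen because it had the widest range over the arrays of the 99 related genes. It was at 0.05, 3.49 and -0.85 in AAP, 2.50, 3.78 and 2.20 in HAN and 2.43, 1.23 and 3.69 in PBS. Lens markers, 13 of 13 measured, stood in the same pools at -1.41, 2.33 and -2.04 in AAP, 0.61, 1.49 and 1.31 in HAN and 1.24, -2.28 and 1.04 in PBS, relative to the PBS mean. Their summed level was 122.6 to 1442 in AAP, 742.2 to 1053 in HAN and 96.5 to 919.4 in PBS, and their part in the Penk values was not tested.

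**Figure D4:**
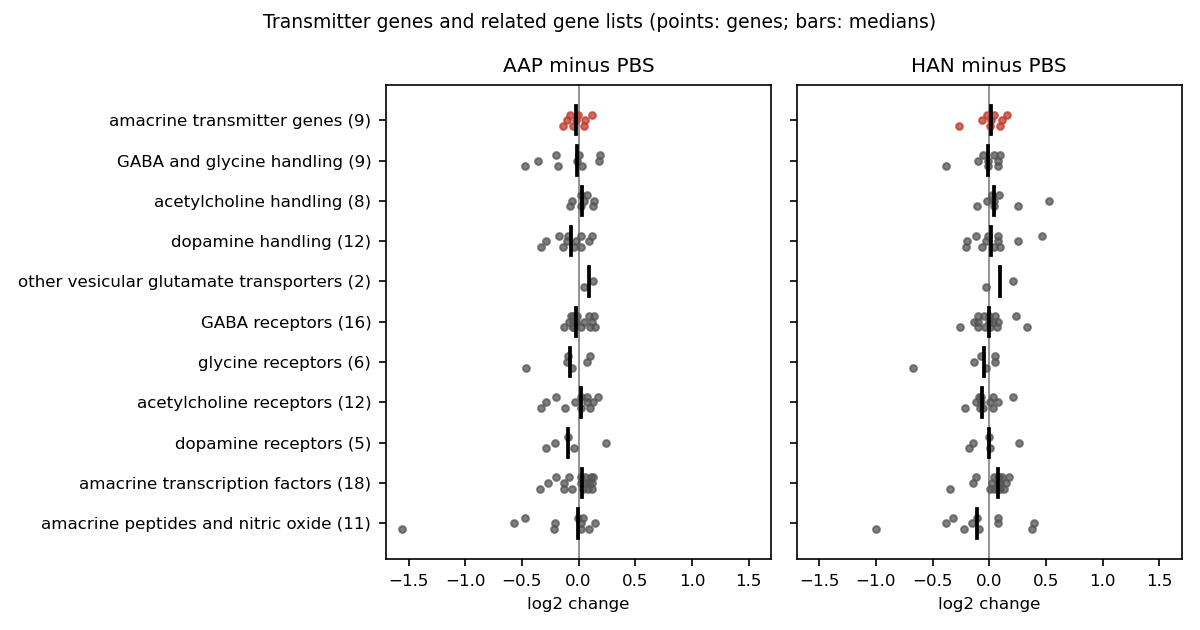
Log2 change of each gene (points) in AAP minus PBS and HAN minus PBS, with the median of each list (bars) and the number of genes in brackets; the transmitter genes are red. The list medians lie between -0.11 and 0.09, and the point at -1.56 in AAP minus PBS is Penk.

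Over the 10 related lists 0 of 99 measured genes passed in each comparison, with limma. Of the 99, 4 had an unadjusted p under 0.05 in AAP against PBS, 6 in HAN against PBS and 6 in AAP against HAN. Over all genes the shares were 6.79%, 9.65% and 8.54%. Starburst markers, 7 of 7 measured, had a summed level of 4.18 to 4.90 in AAP, 4.17 to 4.69 in HAN and 4.32 to 4.49 in PBS, and AII amacrine markers, 6 of 6, of 16.5 to 17.4 in AAP, 15.7 to 21.0 in HAN and 18.6 to 20.4 in PBS. A sum is carried by its brightest genes: gene by gene, 3 AII markers were higher and 3 lower in AAP against PBS (median 0.03), and the mean deviations of the pools overlapped, at -0.09, 0.01 and 0.16 in AAP and 0.03, -0.05 and 0.02 in PBS. Horizontal cell markers, 7 of 8, which mark the other GABA-using interneurons, ran from 30.3 to 33.3 in AAP, 30.4 to 31.7 in HAN and 27.8 to 29.1 in PBS. Their sums were higher in AAP and in HAN than in PBS, but 4 of 7 genes were higher in AAP and 5 of 7 in HAN, with a median of 0.03 in each. Their mean deviations overlapped, at -0.06, 0.00 and 0.13 in AAP, 0.04, -0.02 and 0.13 in HAN and 0.05, -0.03 and -0.02 in PBS. Nefl, also on the ganglion cell list, had the highest change of these 7 genes, at 0.23 in AAP and 0.24 in HAN against PBS. The part of these lists in the members' values was not tested. Ganglion cell markers, 14 of 14, were higher for 13 of 14 genes in both AAP (median 0.12) and HAN (median 0.18) against the same PBS pools, with none passing. Their mean deviations were 0.07, 0.11 and 0.22 in AAP, 0.21, 0.14 and 0.13 in HAN and 0.02, -0.14 and 0.12 in PBS. AAP overlapped PBS there, and HAN lay above it by a narrow gap. Rod markers, 10 of 10, were lower for 10 of 10 in HAN against PBS (median -0.17), with none passing. Rod markers summed to 898.3 to 1174.5 in AAP, 825.6 to 905.4 in HAN and 886.9 to 1063.5 in PBS, and their part in the HAN values of Th and the other members was not tested. Microglia markers, 12 of 12, were lower for all 12 in both AAP (median -0.63) and HAN (median -0.40), with none passing, and their part was likewise not tested.

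The 75th percentile of the processed signal was 1334 (AAP 3) to 2343 (PBS 1), 71.6% to 79.2% of spots were well above background, and the lowest correlation of log2 levels between arrays, taken over genes, was 0.980 among the 9 within-group pairs and 0.979 among the 27 other pairs. The labels do not say whether the pools of a group were extracted or labelled apart, so the spread between arrays may be partly technical.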

How the data were processed

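The 9 retinal RNA pools were measured on single-dye (Cy3) Agilent mouse arrays, 3 a group. Per the file headers, the authors quantified spots with Agilent Feature Extraction 11.0.1.1 (protocol GE1_1100_Jul11, array design on mm9), and the deposited processed signal is a linear intensity, background-subtracted within each array and not normalised between arrays. The control and well-above-background flags are other values that the authors deposited. In the authors' deposited value table at least 99.8% of values on an array equalled the mean processed signal of the probe within a relative tolerance of 0.0001. Its column medians were 164.7 to 298.3; the authors' own group comparison was not used here.

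Control spots and outlier spots (103 to 160 an array) were left out, and 0 spots were saturated. The log2 signal minus the array's 75th percentile over non-control spots was averaged over the spots of a probe (39429 probes). Probes entered the fit if 1 group or more had them above background on its every array, with at least 2 values a group, and each gene was read from its brightest such probe. Accessions without versions were matched to RefSeq symbols of GRCm38.p6 (26055 probes), and 13374 probes kept their accession. limma 3.58.1 (R 4.3.3) was used with lmFit and eBayes, 6 residual and 1.85 prior degrees of freedom, and checked on simulated data. The simulated arrays had no slide effects, and the planted changes were larger than those of the members. That check therefore does not show whether changes as small as those of the members would be called. The fit of every probe gave the values of second probes. Probe sequences were not used here.

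The members and the gene lists were chosen with earlier results of these data known. Named genes were all 9 members, in each related list any gene past the threshold and otherwise the 2 genes with the smallest p of a comparison, and for each member the 2 curated genes and the member most like it. Genes such as Ddc, Gch1, Ache and Abat were named for their role after values were seen. Not every list gene that the rule names is reported here. Replicate numbers were not used to pair the samples in the main fit. Deviations of same-numbered pools from their group means correlated from -0.28 to 0.40. The highest value was that of AAP 1 and PBS 1, which share slide 1, so these values do not settle whether pools were paired. Alternatives changed the background correction, scaling, filter, probe rule, weights, slide, block and the arrays used.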

Additional observations from a re-analysis of the deposited data

How the results depend on the processing

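Under no alternative did any of the 9 transmitter genes pass, in 207 member values a comparison; the lowest adjusted p was 0.144, for Th in HAN against PBS with array weights (-0.30). Nor did any gene of the related lists. Th in HAN against PBS stayed negative under all 23 alternatives (-0.63 with slide as a fixed block to -0.24 without HAN 1). These are not separate checks. Th had no other probe, so the filter and probe settings left its value at -0.27 by construction. Leaving out AAP arrays could not move it either. The sign changed in 17 of 207 member values for AAP against PBS. It changed in 20 for HAN against PBS and 14 for AAP against HAN, and none of these passed. Some of the 207 values could not change, because the setting did not touch the probe or the arrays compared. List medians moved by more than the spread between pools in 45 of 660 values. Normexp, run on the median signal because the files hold no mean signal (so the planned setting was not run; chosen after seeing the data), moved the median of all genes to 0.15 in HAN against PBS and -0.12 in AAP against HAN. Beside that shift, HAN against PBS was at -0.10 in Gad1, -0.03 in Slc32a1, -0.04 in Slc6a9 and 0.07 in Slc5a7, each with its sign turned, and at 0.26 in Chat and 0.27 in Slc17a8. With normexp the HAN against PBS medians were 0.40 for acetylcholine receptors and 0.18 for glycine receptors, both with the sign turned, 0.25 for dopamine handling and 0.22 for dopamine receptors. In AAP against HAN they were -0.25 for acetylcholine receptors and -0.25 for glycine receptors, both turned, -0.22 for dopamine handling and -0.35 for dopamine receptors.

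The number of called genes over the whole array, 1 in AAP against PBS, 1 in HAN against PBS and none in AAP against HAN, changed with the setting. In AAP against PBS it was 0 with normexp, quantile normalization, median scaling, no filter, only the AAP and PBS arrays, AAP 2 alone, or the replicate block, and 48 with slide as a fixed block. In HAN against PBS it was 0 with normexp or the replicate block, 2 with slide as a fixed block and 3 with array weights. Leaving out 1 array gave 0 to 12 (12 without AAP 2), 1 to 3 and 0 to 13 (13 without AAP 2) called genes in the 3 comparisons. The causes were not tested. The number of arrays limits the precision.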
